A study of Mus musculus with 2 samples.

Results

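Cluster 12 of the FGF2 library is a small group of cells in cultured mouse salivary gland stroma that the authors separated by clustering single-cell RNA profiles. It was described here through every gene the authors listed for it, 19 of the 3058 genes in their FGF2 table and of 5238 genes in all tables of the series. Of these, 15 were listed as higher and 4 as lower than in all other cells of the same library. Cluster 6, the comparison group, had 101 listed genes and also carried the chemokine gene Ccl2. All cells were of CD-1, an outbred mouse stock, with an age label of embryonic day 16 plus 7 that the labels do not explain. The series holds 1 control organoid library (5023 captured cells per the labels) and 1 organoid library with FGF2 (10107 cells), fibroblast growth factor 2, at a dose and time that the labels do not state. The labels give the same stock, tissue and age for both libraries. No replicate, count per cell, depth per cell or cell number per cluster was used here, so no value below has a replicate error, and no test was made.

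Chemokines are small secreted proteins that direct the migration of leukocytes. Ccl2 and Ccl7, also called monocyte chemoattractant proteins 1 and 3, act mainly through the receptor CCR2 on monocytes, and Ccl11, or eotaxin, acts through CCR3 on eosinophils. Fibroblasts and other stromal cells are a known source of all of them in inflamed or injured tissue.

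Each value of a cluster is the authors' own, from their deposited table, unless it is said to be computed. A share is the percentage of cells with a value above 0, given for the cluster and for all other cells of the library. A log ratio is the natural log of the cluster's average plus 1 over that of its other cells plus 1, so it understates the difference of a low gene. Every listed gene had a log ratio of 0.25 or more in either direction, and the larger of its shares was 25.1% or more. A gene not listed for a cluster may be expressed there at a level close to that of the other cells. The genes were used to form the clusters, so the differences from other cells describe the cluster and are not evidence for it.

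Cluster 12 was computed to hold 1.96% of the cells of the FGF2 library, and it stood out by how little set it apart. Its 19 listed genes were the fewest of the 17 clusters, the others having between 101 and 1258. Of 20056 genes tested by the authors, 0.0748% were listed as higher and 0.0199% as lower in cluster 12. Its largest log ratio was 0.51 in size, whereas the largest of each other cluster was at least 1.26 in size. The median share of its listed genes in the authors' deposited table was 96.9%, against 78.4% elsewhere in the library. The median of each of the other 16 clusters was at most 87.1%. Each median is over that cluster's own list of genes, and the genes of the other lists were less widespread. Their median share outside their own cluster was at most 70.8%, against the 78.4% given above.

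Ccl7 and Ccl2, which served as markers of the cluster in this work and come from the same values, had its 2 largest log ratios, so they are no check of the name chemokine cluster. The name stromal could not be checked either. None of 10 stromal markers, Pdgfra, Col1a1 and Dcn among them, was listed for cluster 12 in either direction, and Pdgfra was computed to be found in 84.2% of all FGF2 cells. None of the 15 cell type lists had a member listed for the cluster, including the macrophage (4 of 13 symbols in the FGF2 table), neutrophil (5 of 9), mast cell (8 of 8), endothelial (1 of 9), epithelial (7 of 10) and proliferating (9 of 9) lists. Levels of those markers within the cluster were therefore not available to this comparison. It is called cluster 12 below, after its number.

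Among the listed genes were 3 neighbours of 1 chemokine locus. Ccl2 (chr11:82035571-82037453 in GRCm38, the assembly also called mm10, plus strand), Ccl7 (chr11:82045712-82047525) and Ccl11 (chr11:82057823-82062955) follow each other on chromosome 11 with no other annotated gene lying wholly between them. The next genes, Ccl12 (chr11:82101845-82103400) and Ccl8 (chr11:82115185-82116799), were not listed for cluster 12. Of 21 CC and CX3C chemokine symbols 6 were in the FGF2 table, and 3 of the 6 were listed as higher and none as lower in cluster 12. Of all genes in the FGF2 table, 0.621% were listed for cluster 12 in either direction. Ccl2 and Ccl7 were the markers that served to pick the cluster, so the count is no independent result. Only Ccl11 adds to them, with a log ratio of 0.25, at the limit of listing. Ccl8 was listed for 11 other clusters and Ccl12 for none.

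Ccl7 was found in 99.0% of the cells of cluster 12 and 78.4% of the other cells in the authors' deposited table, with a log ratio of 0.47. That was the highest share among the 11 clusters with an entry for it. The next were cluster 6 (95.8%) and cluster 4 (93.0%), and the lowest was cluster 16 (12.9%), a Schwann or glial-like cluster with 5 of 9 such markers listed as higher. When each cluster was set against the average of all cells, Ccl7 also had its largest computed log ratio among these 11 in cluster 12 (0.46), ahead of cluster 4 (0.36) and cluster 6 (0.26).

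Ccl2 was found in 95.4% of the cells of cluster 12 and 68.7% of the other cells in the authors' deposited table, with a log ratio of 0.41, or 1.51-fold on the scale of averages plus 1. Again the share was the highest of 14 clusters with an entry, followed by cluster 6 (91.9%), cluster 4 (89.1%) and the proliferating-like cluster 9 (85.3%). The computed log ratio to all cells placed cluster 6 (0.55) above cluster 12 (0.40). Ccl2 was also found in 42.2% of the mast-like cluster 15, 30.9% of the epithelial-like cluster 11 and 19.4% of cluster 16 in the authors' deposited table, types not known as its main source, at unknown depth. The share in cluster 12 stands against this background. Ccl2 overlaps the gene Gm17268 on the opposite strand, and the sources used here do not say whether counting used the strand. The same holds for Timp1, Fn1, Tnc, Thbs1, Nmt1, Rpl35 and Malat1, each of which overlaps a gene on the opposite strand.

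Ccl11 was found in 92.8% of the cells of cluster 12 and 56.0% of the other cells in the authors' deposited table (log ratio 0.25). Its share in cluster 12 exceeded that in cluster 8 (84.9%), cluster 3 (75.5%) and cluster 7 (70.0%), the other clusters where it was listed as higher. By the computed log ratio the order was different, with cluster 8 at 0.80, cluster 3 at 0.47, cluster 7 at 0.35 and cluster 12 at 0.25. Ccl11 was thus found in a larger share of cluster 12 than of cluster 8 while its average was lower.

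**Figure D1:**
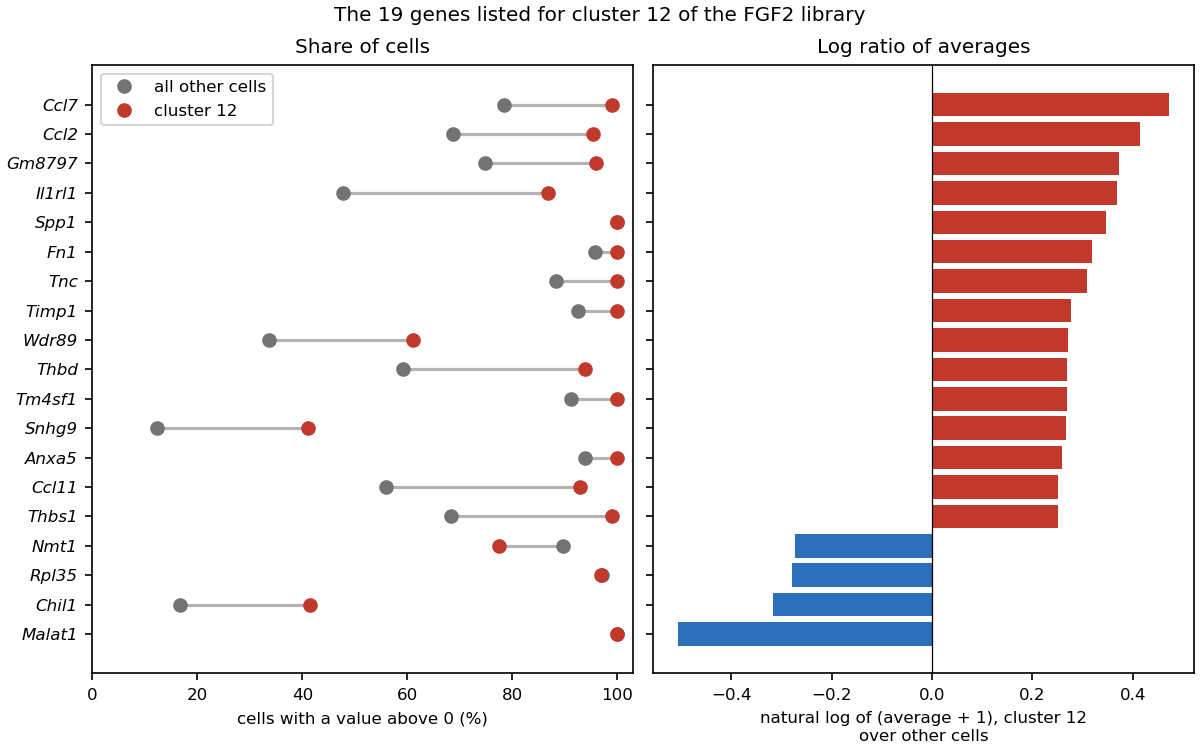
Each row is 1 of the 19 genes listed for cluster 12. The left panel shows the percentage of cells with a value in cluster 12 (red) and in all other FGF2 cells (grey), and the right panel the authors' natural log ratio. Chil1 has the larger share in cluster 12 (41.5% against 16.6%) and a log ratio below 0.

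The receptor gene Il1rl1 encodes ST2, the receptor of interleukin 33, in a membrane-bound and a secreted form. Mast cells and fibroblasts are known to start its transcription at different promoters, the distal one in mast cells and the proximal one in fibroblasts. Of the starts of Il1rl1 (chromosome 1, plus strand), 2 are in the RefSeq promoter table of build GRCm38.p6, 10059 bases apart. They are shown because this gene had the largest gap in share in cluster 12. Each sequence has 250 bases before the start in lower case and the 50 bases from the start on in capitals.
Il1rl1 first start, chr1:40429320-40429619: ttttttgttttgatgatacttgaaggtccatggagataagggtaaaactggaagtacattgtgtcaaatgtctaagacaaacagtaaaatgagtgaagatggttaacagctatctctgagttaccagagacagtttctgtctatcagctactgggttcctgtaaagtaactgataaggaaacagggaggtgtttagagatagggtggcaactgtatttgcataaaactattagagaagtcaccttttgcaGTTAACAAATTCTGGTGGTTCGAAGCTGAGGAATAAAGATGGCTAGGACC
Il1rl1 second start, chr1:40439379-40439678: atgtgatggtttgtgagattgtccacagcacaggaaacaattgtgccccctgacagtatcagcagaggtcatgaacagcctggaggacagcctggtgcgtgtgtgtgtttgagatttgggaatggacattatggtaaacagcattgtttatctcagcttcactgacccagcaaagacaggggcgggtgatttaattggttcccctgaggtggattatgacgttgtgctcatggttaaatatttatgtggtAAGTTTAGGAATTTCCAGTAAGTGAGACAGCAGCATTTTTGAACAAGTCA
The libraries tag the 3' end of a transcript, so the values below do not tell these starts apart.

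Il1rl1 was found in 86.7% of the cells of cluster 12 and 47.7% of the other cells in the authors' deposited table, a gap of 39.0 percentage points with a log ratio of 0.37. The next shares were 60.3% in cluster 3, 59.7% in cluster 7 and 58.2% in cluster 1, and the lowest was 12.9% in cluster 16. The computed log ratio to all cells was nevertheless close in cluster 3 (0.39) and cluster 12 (0.36), and 0.28 in clusters 1 and 7. The mast-like cluster 15 had no entry for Il1rl1. Il33, the ligand, was not listed for cluster 12, and in the authors' deposited table it was found in 79.8% of cluster 3 and 35.7% of cluster 6.

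Matrix genes formed the next group. Of 29 fibrillar collagen and matrix symbols 27 were in the FGF2 table, and Fn1, Tnc and Thbs1 were listed as higher in cluster 12 and none as lower. For comparison, 0.621% of all genes in the FGF2 table were listed for the cluster in either direction. None of the collagens or proteoglycans of that list was among the 3. Tnc, tenascin C, an adhesion-modulating glycoprotein of healing and developing tissue, was found in 100% of cluster 12 and 88.3% of the other cells in the authors' deposited table (log ratio 0.31). Fn1, the gene of fibronectin, which links cells to the matrix, was found in 100% and 95.8% (log ratio 0.32). Thbs1, thrombospondin 1, a matrix protein that can activate latent TGF-beta, was found in 99.0% and 68.3% (log ratio 0.25). For Thbs1 the contractile cluster 4 had nearly the same share (97.6%) with a computed log ratio to all cells of 1.19, against 0.25 in cluster 12. Acta2 and Tagln, which led cluster 4, were not listed for cluster 12.

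Spp1, the gene of osteopontin, a secreted phosphoprotein with cytokine functions, was found in 100% of the cells of cluster 12 and of all other clusters with an entry in the authors' deposited table. Its log ratio in cluster 12 was 0.35 (1.41-fold). Computed against all cells, it was higher in clusters 8 (0.48) and 7 (0.44) than in cluster 12 (0.34), and 0.33 in cluster 1. In the authors' deposited table Timp1, an inhibitor of matrix metalloproteinases, was found in 100% and 92.5% of the cells (log ratio 0.28), with much larger computed log ratios in clusters 7 (1.10) and 8 (0.74) than in cluster 12 (0.27). Timp1 was the 1 gene of the 17 matrix proteases and inhibitors in the FGF2 table that was listed for cluster 12. With 0.621% of all genes in the FGF2 table listed for it, 1 gene is no result about that list.

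Thbd and Tm4sf1 encode membrane proteins of the cell surface. Thbd encodes thrombomodulin, a thrombin receptor that limits coagulation, and was found in 93.8% of cluster 12 and 59.2% of the other cells in the authors' deposited table (log ratio 0.27). Clusters 4 (88.7%) and 7 (87.8%) came next in share. Tm4sf1, a membrane protein of the tetraspanin-like L6 family, was found in 100% and 91.2% (log ratio 0.27). Anxa5, a mainly cytosolic protein that binds phosphatidylserine in the presence of calcium, was found in 100% and 93.9% in the authors' deposited table (log ratio 0.26).

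Together, 12 of the 15 higher genes had an entry in another FGF2 cluster, and 2 measures ordered the clusters differently for them. Among the clusters with an entry for the gene, the share was highest in cluster 12 for 12 of 12, with ties for Spp1 and Fn1. Among the same clusters, the computed log ratio to all cells was highest in cluster 12 for 1 of 12, Ccl7. The genes were taken because they were listed as higher in cluster 12, so the count by share is no independent result. Clusters without an entry were left out, and no such count is given for the higher genes of another cluster. Of the 15 higher genes 12 were found in at least 90% of the cluster's cells, and 6 in all of them. Spp1, Fn1, Anxa5, Timp1 and Tm4sf1 were also found in at least 90% of the other cells. The median share of the 15 was 99.0% in cluster 12 and 74.7% in the other cells. A share rises with the depth of a cell as well as with expression. The depth per cell was not available here, and its part in these shares was not tested.

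**Figure D2:**
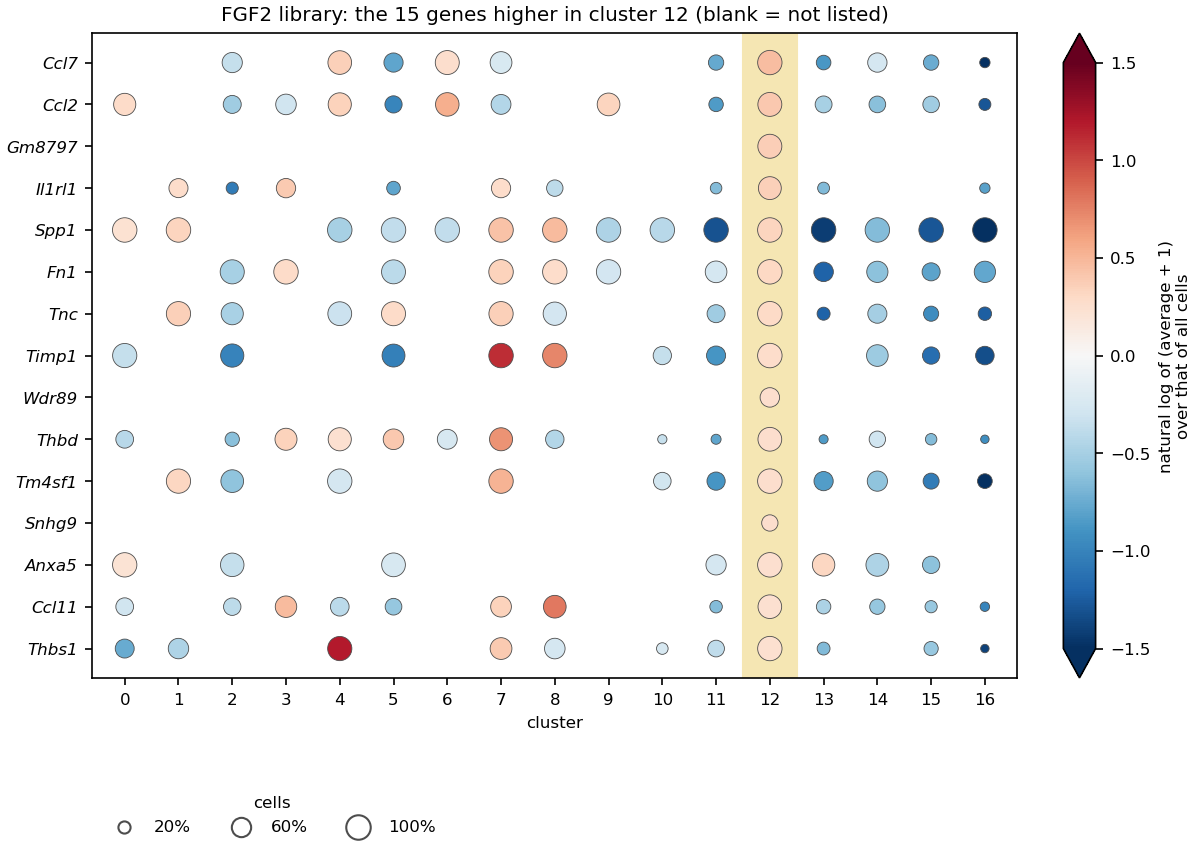
Columns are the 17 clusters of the FGF2 library and rows the 15 genes listed as higher in cluster 12 (shaded). Point area grows with the share of cells, colour gives the computed natural log ratio to all cells, and blank places are not listed. Gm8797, Wdr89 and Snhg9 have no point outside cluster 12. Ccl7 is the 1 other gene with its highest plotted log ratio in cluster 12.

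The entries of 4 genes were found in no other cluster of the FGF2 library: Gm8797, Wdr89 and Snhg9, listed as higher, and Nmt1, listed as lower. In the authors' deposited table Gm8797 was found in 95.9% of cluster 12 and 74.7% of the other cells (log ratio 0.37), the third largest log ratio of the cluster. Wdr89, a WD-repeat protein gene, was found in 61.0% and 33.6% (log ratio 0.27). Snhg9, a small nucleolar RNA host gene, was found in 41.0% and 12.3% (log ratio 0.27), the largest ratio of shares among the 19. Nmt1, an N-myristoyltransferase that attaches a fatty acid to proteins, was found in 77.4% and 89.7% (log ratio -0.27).

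All of the 3 higher ones share sequence or position with an abundant housekeeping gene. The transcript of Gm8797 matched Ubb, a polyubiquitin gene, at 98.2% identity over 384 bases. Wdr89 held, 3' of its coding region, a stretch that matched 92.9% of a transcript of the ribosomal protein gene Rplp2 at 99.5% identity over 391 bases. Snhg9 (chr17:24719531-24719965, minus strand) lies inside the ribosomal protein gene Rps2 (chr17:24718116-24721929) on the opposite strand. How the authors' counting split reads between such genes is unknown here, so these values are uncertain as to gene. Ubb, Rplp2 and Rps2 were themselves not listed for cluster 12. In the authors' deposited table Ubb was listed for cluster 13 alone, as higher (log ratio 0.42), although its share was 77.5% against 92.2% in the other cells.

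Gm8797 is annotated as protein coding in GENCODE M21 and as a pseudogene in RefSeq. A coding stretch of 180 bases is shown beside the matching stretch of Ubb. It was chosen as a stretch of that length with the most differing bases within the 95% identity limit given below. The pair differs there at 6 bases, which are in capitals. Both are on the plus strand of GRCm38.
Gm8797, chr3:5750904-5751083: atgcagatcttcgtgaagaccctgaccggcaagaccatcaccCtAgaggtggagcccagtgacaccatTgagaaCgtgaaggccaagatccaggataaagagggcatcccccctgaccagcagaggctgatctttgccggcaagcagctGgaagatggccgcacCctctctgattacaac
Ubb, chr11:62552830-62553009: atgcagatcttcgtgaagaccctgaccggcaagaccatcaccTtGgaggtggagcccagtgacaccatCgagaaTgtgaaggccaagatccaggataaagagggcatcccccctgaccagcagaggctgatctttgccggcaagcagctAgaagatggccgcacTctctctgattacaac
With the same limits (at least 95% identity over at least 200 bases), 3 of the 19 members had such a copy outside their own locus. The third was Rpl35, a ribosomal protein gene, whose closest copy, Gm2000, matched at 99.6% over 445 bases.

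The other genes listed as lower were Malat1, Chil1 and Rpl35. Malat1, a nuclear long non-coding RNA, was found in 100% of cluster 12 and 99.9% of the other cells in the authors' deposited table, with a log ratio of -0.51, the largest in size for the cluster. Computed against all cells, its log ratios ran from -2.98 in cluster 13 to 1.18 in cluster 16. Rpl35 was found in 96.9% and 97.0% of the cells (log ratio -0.28). It was the 1 gene listed for cluster 12 of 80 ribosomal protein genes in the FGF2 table, and none of 11 mitochondrially encoded genes was listed. Because 0.621% of all genes in the FGF2 table were listed for the cluster in either direction, neither count is a result about its list.

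Chil1, a secreted chitinase-like protein gene, was found in 41.5% of cluster 12 and 16.6% of the other cells in the authors' deposited table, yet its log ratio was -0.32. The only other cluster with an entry was the epithelial-like cluster 11, led by Chil1, with a share of 64.9% and a log ratio of 3.36. Cluster 12 thus had a larger share of cells with Chil1 than the pooled other cells of the library, but a lower average. Those other cells include cluster 11, whose own share was larger than that of cluster 12. Over the 15 clusters without an entry, 95.1% of the cells, Chil1 was computed to be found in 15.2%. The computed log ratio to all cells was -0.59 over those 15 clusters, -0.31 in cluster 12 and 2.77 in cluster 11. The average in cluster 12 was therefore above that of the 15 clusters without an entry and below that of cluster 11. None of the 7 epithelial markers in the FGF2 table was listed for cluster 12. So short a list with none is no result, because 0.621% of all genes in the FGF2 table were listed for the cluster.

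Promoters of 300 bases were in the RefSeq table for 12 of the 19 members, 8 of them higher genes, and not for Ccl2, Ccl7 or Ccl11. The AP-1 motif TGANTCA, searched on both strands, was in the promoters of none of the 8 and in 7.81% of all 32851 promoters. The NF-kappaB consensus, also on both strands, was in that of 1 of the 8, Tm4sf1, and in 8.46% of all.

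Of 23 lists of gene functions, 16 had no gene listed for cluster 12. As 0.621% of the genes in the FGF2 table were listed for it, a short list with none is no result about that list. Among these were CXC chemokines (6 symbols in the FGF2 table), chemokine receptors (2), NF-kappaB pathway genes (9), interferon response (10), immediate early genes (24), metallothionein and antioxidant genes (17), hypoxia and glycolysis (22), contractile and TGF-beta response (18), FGF and ERK feedback (10) and cell cycle genes (20). The 15 higher genes were the 3 chemokines of 1 locus, Il1rl1, the secreted and matrix genes Spp1, Fn1, Tnc, Thbs1 and Timp1, then Thbd, Tm4sf1 and Anxa5, and the 3 transcripts of uncertain assignment.

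The comparison with cluster 6 asks how cells that share high Ccl2 differ. Cluster 6 was computed to hold 6.36% of the FGF2 cells, and 0.284% of the genes tested were listed as higher and 0.219% as lower in it. The 2 clusters were each compared with nearly the same other cells, so their values are given side by side. Genes listed for both numbered 4: Ccl2, Ccl7, Spp1 and Thbd. Of these, 0 (percentage called 0%) differed by at least 1.5-fold in share, and 2 (50%) differed by at least 0.25 in computed log ratio to all cells, both higher in cluster 12. Shares of Ccl2, Ccl7 and Spp1 were near 100% in both clusters, which left little room for a 1.5-fold difference. The 2 that differed in log ratio, Spp1 and Thbd, were listed in opposite directions. Both counts therefore follow largely from the listing and from this upper limit of a share.

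Ccl2 was found in 95.4% of cluster 12 and 91.9% of cluster 6 in the authors' deposited table. Its computed log ratio was lower in cluster 12 by -0.15, that is 0.865 of the level in cluster 6 on the scale of averages plus 1. Ccl7 went the other way, with 99.0% and 95.8% in the authors' deposited table and a computed log ratio 0.20 higher in cluster 12 (1.22-fold). The chemokine pair therefore differed little between the clusters, with Ccl2 the leading one of the pair in cluster 6 and Ccl7 in cluster 12.

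Spp1 and Thbd were listed in opposite directions. Spp1, in all cells of both clusters, had a log ratio of 0.35 in cluster 12 and -0.39 in cluster 6 in the authors' deposited table, a computed 2.02-fold between the clusters. Thbd was found in 93.8% of cluster 12 and 63.9% of cluster 6 in the authors' deposited table, with log ratios of 0.27 and -0.27, and a computed 1.68-fold between them. The gap of 29.9 points for Thbd was the 1 difference in share above 10 points.

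**Figure D3:**
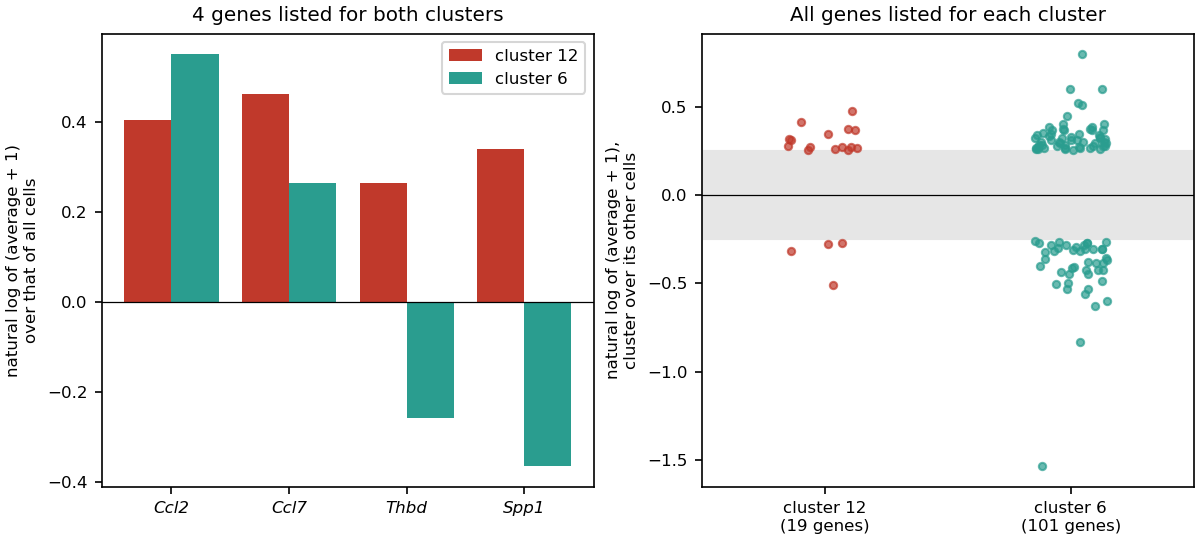
The left panel shows the computed natural log ratio to all FGF2 cells for the 4 genes listed for both clusters, cluster 12 in red and cluster 6 in green. The right panel shows every listed gene of each cluster by the authors' log ratio, with the grey band marking sizes under 0.25, and cluster 6 extends from -1.53 to 0.80.

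The other 11 higher genes of cluster 12, Il1rl1 and Ccl11 among them, had no entry for cluster 6. Computed over all clusters without an entry together, cluster 6 included, Il1rl1 was found in 54.6% of the cells (7 clusters), Ccl11 in 57.2% (4 clusters), Thbs1 in 74.7% (6 clusters) and Tnc in 89.4% (5 clusters). The corresponding shares in cluster 12, 86.7%, 92.8%, 99.0% and 100%, were all larger. The value in cluster 6 alone was not given.

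Conversely, 97 genes were listed for cluster 6 and not for cluster 12, 55 as higher and 42 as lower. In the authors' deposited table Cavin2, a coat protein of caveolae, was found in 87.4% of cluster 6 and 40.0% of the other cells (log ratio 0.80). Cemip, which takes part in hyaluronan breakdown, was found in 82.9% and 42.8% (log ratio 0.60), and Col8a1, a short-chain collagen, in 73.5% and 36.8% (log ratio 0.52). The integrin subunit gene Itga4 was found in 72.9% and 35.1% (log ratio 0.40) and Vcam1, an adhesion molecule that binds that integrin, in 78.2% and 39.7% (log ratio 0.37). Cluster 12 had no entry for any of these 5.

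The lower genes of cluster 6 also had, apart from Spp1 and Thbd, no entry for cluster 12. The lowest was Igfbp5, an IGF binding protein, found in 29.6% of cluster 6 and 45.1% of the other cells in the authors' deposited table (log ratio -1.53). Il11, a cytokine of activated fibroblasts, had a log ratio of -0.83 and the proteoglycan gene Dcn one of -0.63. Among hypoxia and glycolysis genes, 5 of the 22 in that library's list were lower and 1 was higher in cluster 6, against none in cluster 12. Of 22 stromal growth factors 5 were lower in cluster 6 (Areg, Cck, Ereg, Hgf and Vegfa), and none had an entry for cluster 12. Among matrix genes cluster 6 had Col3a1, Dcn and Lum as lower, while cluster 12 had Fn1, Tnc and Thbs1 as higher. Over all genes tested, 0.219% were listed as lower in cluster 6 and 0.0199% in cluster 12, and 0.284% and 0.0748% as higher. With 101 genes listed for cluster 6 and 19 for cluster 12, these contrasts follow in part from the lengths of the 2 lists. An absence from cluster 12 is therefore no result about a short list.

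The control library has its own clusters, built from other cells, and their numbers do not correspond to those of the FGF2 library. Of the 19 genes 16 were in the control table. Control cluster 12, computed at 0.828% of the control cells, had entries for 13 of them. It listed 9 of the 15 higher genes as higher too, 60% of them, and these were 1.89% of its own 477 higher genes. In that cluster 2.5% of the genes tested were listed as higher. The other 14 control clusters listed between 0 and 4 of the 15 as higher, and between 0.288% and 5.07% of all genes tested.

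Il1rl1, Ccl11 and Gm8797 had an entry in control cluster 12 and in no other control cluster. In the authors' deposited table Il1rl1 was found there in 26.8% of the cells against 2.70% of the other control cells (log ratio 0.97). Ccl11 was found in 26.8% and 11.9% (log ratio 0.83), and Gm8797 in 63.4% and 45.4% (log ratio 0.27). Ccl2 was found in 82.9% and 39.6% (log ratio 2.39) and Ccl7 in 75.6% and 46.2% (log ratio 1.22). These log ratios were larger than those of FGF2 cluster 12 for all but Gm8797. Control cluster 12 was computed at only 0.828% of a library with 5023 captured cells, so each of its shares rests on few cells.

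The likeness was not complete. Thbs1 was listed as lower in control cluster 12 (log ratio -1.28, 63.4% of its cells against 83.0%) in the authors' deposited table. Malat1 (0.67) and Nmt1 (0.29), lower in FGF2 cluster 12, were listed there as higher. Rpl35 was lower in both (-0.30 and -0.28). Of the genes tested 2.02% were listed as lower in control cluster 12. Control cluster 11, in which 1.63% of the genes tested were listed as higher, also listed Ccl2 (1.99) and Ccl7 (1.27) as higher in the authors' deposited table, but 5 of the other 13 higher genes, Fn1, Thbs1, Timp1, Tm4sf1 and Tnc, as lower. In that cluster 5.29% of the genes tested were listed as lower.

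**Figure D4:**
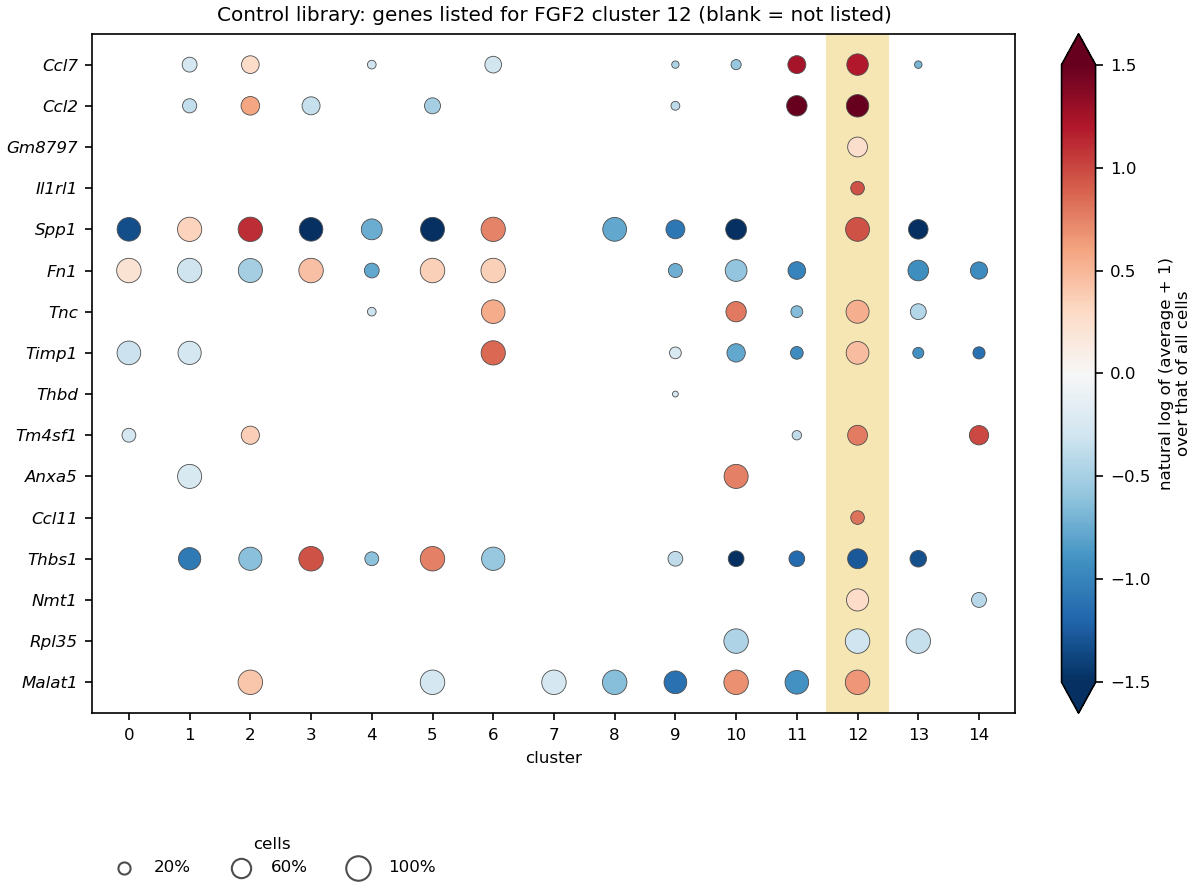
Columns are the 15 clusters of the control library and rows the 16 genes of FGF2 cluster 12 that the control table holds. Point area grows with the share of cells, colour gives the computed natural log ratio to all control cells, and blank places are not listed. Control cluster 12 (shaded) has points for 13 of the genes, among them Il1rl1, Ccl11 and Gm8797, which have none elsewhere.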

How the data were processed

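Single-cell libraries were made on the 10x Chromium system, per the labels' protocols, and the submitters' processing notes name Cell Ranger 4.0 and mm10. Neither the cell filters, doublet treatment, normalization and clustering nor the tool behind the comparisons could be learned from the labels. Per the file headers, each table compares every cluster with the other cells of its table. The deposited log ratios were read as natural log values: on genes at 0 in several clusters, the implied average varied by 0.0030% (median CV) with base e and 0.0334% with base 2. The deposited shares are fractions, printed as a percent. The authors' p-values come from cells of 1 library and are not printed.

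The part of all cells per cluster was computed by least squares over 1490 genes listed in at least 2 clusters (residual 0.0242 percentage points). Log ratios were then put on the average of all cells. On simulated FGF2 tables of 3058 genes the part of cluster 12 was off by 0.0796 points and a log ratio by at most 0.0022. Shares of cluster 12 and 6 were compared with a pseudocount of 0.1 points and a 1.5-fold rule. By the rule for naming genes (the 25 largest log ratios in each direction), all 19 genes of cluster 12 were named. Genes of cluster 6 alone were chosen as examples after their values were seen. Members, lists and rules were chosen with earlier results of these data known. Transcripts were matched with BLAST+ 2.17.0 on GENCODE M21. Python 3.11.15 was used. Precision is limited by the unknown depth, by cell numbers per cluster known only through the computed parts, and by 1 library per group.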

Additional observations from a re-analysis of the deposited data

How the results depend on the processing

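No paired analysis was possible because each group has 1 library. With a log ratio of at least 0.5 in size, 0 genes were higher and 1 was lower in cluster 12, so its higher list lies wholly near the limit of listing. With a larger share of at least 50% these counts were 14 and 3, and with an adjusted p-value of the authors under 0.05 they stayed 15 and 4. Between clusters 12 and 6, of the genes listed for both, 1 was higher in cluster 12 with a 10-point rule and 2 with a log ratio difference of 0.25, against 0 by the 1.5-fold rule, and 0 were lower under each. The 2 were listed in opposite directions for the clusters, so that count follows from the listing. With genes listed for either cluster and unlisted shares set to the share over all cells, 5 were higher and 20 lower, a count that follows from the lengths of the 2 lists. A 2-fold rule, the 50% limit and a pseudocount of 1 point left both counts at 0. The part of cluster 12 was 1.93 to 1.98% under 3 other fits. The log ratio differences of Ccl2, Ccl7, Spp1 and Thbd kept their signs with the log ratios as deposited, an alternative chosen after seeing the data. Depth was unknown and cell numbers per cluster were known only through the computed parts, and no interval was given.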

Other observations

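The third table of the authors holds clusters of both libraries after integration. Its values may have been adjusted between libraries and are not read as expression. It has entries for 12 of the 19 genes. Integrated cluster 8, computed at 3.59% of the cells, listed 9 of the 15 higher genes of FGF2 cluster 12 as higher and none of the 19 as lower. Among all genes tested there, 1.75% were listed as higher and 1.07% as lower in it. These 9 were 60% of the 15 and 18.4% of the 49 higher genes of integrated cluster 8. In the authors' deposited table its leading higher gene was Il1rl1 (88.8% of the cells against 64.7%, log ratio 0.95), and Ccl7 (0.62), Ccl2 (0.58), Thbd (0.47), Timp1 (0.47), Fn1 (0.45), Tm4sf1 (0.30), Tnc (0.27) and Ccl11 (0.26) followed among its higher genes. Integrated cluster 6 listed 7 of the 15 as higher (84 of 2802 genes tested were higher in it) and the other 12 integrated clusters between 0 and 5 (1.86% to 7.78% of the genes tested were higher in these). No cell was traced between the tables, so whether integrated cluster 8 holds the cells of FGF2 cluster 12 was not tested.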
